A study of Mus musculus with 15 samples.

Results

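The Kruppel-like factors are zinc-finger transcription factors, and 9 of their genes (Klf2, Klf3, Klf4, Klf5, Klf6, Klf7, Klf9, Klf10 and Klf13), chosen by gene symbol, were followed among the 18078 genes measured in cultured mouse lung fibroblasts. RNA was sequenced from 15 libraries of primary lung fibroblasts of wild-type BALB/cJ mice, harvested 20 h after the start of stimulation. The 5 groups had 3 libraries each: the triple combination (IL-33, IL-13 and IL-17A together), IL-33 with IL-13, IL-33 and IL-17A without IL-13, IL-33 on its own, and untreated cells that received no cytokine. IL-33 is an alarmin of barrier tissues, IL-13 acts through the transcription factor STAT6, and IL-17A is a product of type 3 lymphocytes. Every cytokine group contained IL-33, so the actions of IL-13 and IL-17A were seen here only on top of IL-33. The labels do not say whether the libraries of a group came from separate animals or cultures, so p-values reflect the spread among libraries alone, and that spread may be technical.

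Kruppel-like factors carry 3 zinc fingers at the C-terminus and bind GC-rich DNA such as the CACCC box and the GC box, which the related SP proteins also bind. Klf2, Klf4, Klf5, Klf6 and Klf7 are mostly known as activators that recruit histone acetyltransferases, Klf3 as a repressor that recruits CtBP, and Klf9, Klf10 and Klf13 as repressors that recruit Sin3a. In the lung, Klf2 and Klf4 are known for their part in endothelial quiescence, and in mouse macrophages Klf4 is known to be induced by IL-4, which shares a receptor chain and STAT6 with IL-13.

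The windows upstream of Klf4, Klf13 and Klf9 are printed because these promoters differ in the boxes that the family itself binds. They were taken from RefSeq promoters on GRCm38.p6, which were found for 7 of the 9 genes. Each line gives the 250 bases before the annotated start, 5′ to 3′ on the strand of the gene. Capitals mark CACCC or its complement GGGTG, and GGGCGG or its complement CCGCCC.
Klf4, chr4:55532476-55532725, minus strand: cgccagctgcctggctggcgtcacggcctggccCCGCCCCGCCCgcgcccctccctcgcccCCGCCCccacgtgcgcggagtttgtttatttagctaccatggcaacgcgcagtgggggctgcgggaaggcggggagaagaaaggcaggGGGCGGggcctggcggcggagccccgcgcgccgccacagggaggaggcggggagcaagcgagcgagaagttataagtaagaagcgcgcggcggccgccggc
Klf13, chr7:63938916-63939165, minus strand: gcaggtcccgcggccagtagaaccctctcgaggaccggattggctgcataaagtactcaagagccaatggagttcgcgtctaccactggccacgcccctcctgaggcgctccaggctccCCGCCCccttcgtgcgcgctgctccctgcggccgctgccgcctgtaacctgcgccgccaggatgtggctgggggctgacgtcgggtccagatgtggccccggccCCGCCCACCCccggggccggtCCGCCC
Klf9, chr19:23140976-23141225, plus strand: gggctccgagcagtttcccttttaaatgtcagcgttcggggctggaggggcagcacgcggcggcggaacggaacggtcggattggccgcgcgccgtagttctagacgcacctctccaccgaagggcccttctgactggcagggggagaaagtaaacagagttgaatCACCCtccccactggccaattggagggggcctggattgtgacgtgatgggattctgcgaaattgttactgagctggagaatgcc

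The window of Klf4 held 4 GC boxes, a pair of which share a letter, and 0 CACCC boxes, at a GC content of 74.0%. That of Klf13 held 3 GC boxes and 1 CACCC box that shares a letter with a GC box, at 71.6% GC. Klf9 had 1 CACCC box and 0 GC boxes, at 59.6% GC. Among the other 4 windows, that of Klf3 held the most boxes, with 5 CACCC boxes and 6 GC boxes. Over 32851 mouse promoter windows of the same length, CACCC was found in 52.0% and GGGCGG in 32.7%, on either strand. CCAAT was found 3 times in the window of Klf9, 2 times in that of Klf13 and 4 times in that of Klf6, and in 33.8% of all windows. A STAT-type motif, TTC and GAA with 4 bases of any kind between them, was in 0 of the 7 windows, and in 5.85% of all windows. These matches are descriptions of the letters in a short window and say nothing of binding.

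All 9 genes passed the filter of 1 TPM or more in at least 3 libraries, and each was at or above 1 TPM in all 15. TPM is a read count divided by a length and scaled to a fixed total per library, and the deposited values used the whole gene span, introns included, so that long genes such as Klf7 appear low. The sources used here do not say whether intronic reads were counted. Rescaled to exon length, with every recovered read taken as exonic, Klf6 had the highest mean level over the 15 libraries, at 175 exon-scaled TPM. It was followed by Klf2 at 104, Klf4 at 83.1, Klf9 at 58.7, Klf13 at 41.8, Klf3 at 33.7, Klf7 at 22.2, Klf10 at 20.5 and Klf5 at 3.85. Klf5 rested on 41 to 88 reads per library, while each other member had at least 238. Values below are deposited span-scaled TPM, which are compared only between libraries for the same gene.

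Sequencing depth was 10554557 to 15123198 reads in genes per library, as recovered from the steps between low TPM values. Fibroblast markers were present throughout, with 9 of 10 averaging 10 TPM or more. So were macrophage markers, of which 12 of 12 averaged 10 TPM or more, and in bulk RNA fewer cells of a type and less RNA per cell cannot be told apart. The 10 fibroblast markers summed to 9791 to 10296 TPM in triple libraries, 11204 to 11542 with IL-33 and IL-13, 11780 to 13158 with IL-33 and IL-17A, 13081 to 13978 with IL-33, and 14606 to 16062 in untreated cells. The macrophage sum was 16021 to 16726 TPM in triple libraries, 16939 to 17088 with IL-33 and IL-13, 17225 to 18331 with IL-33 and IL-17A, 17630 to 17790 with IL-33, and 18573 to 19049 in untreated cells. Abundant genes weigh most in these sums, such as Lyz2 (mean 9363 TPM) and Col1a1 (mean 4658 TPM). Of 10 fibroblast markers, limma called 8 lower with the triple combination than in untreated cells and 2 higher, Dcn and Lum. Of 12 macrophage markers it called 7 lower and 2 higher, Mrc1 and Itgam. Calls were at an adjusted p under 0.05, as for 30.1% of all tested genes lower and 12.6% higher. In each group the macrophage sum lay above the fibroblast sum, over 12 markers against 10, and bulk RNA does not assign Klf reads to a cell type. Markers of endothelium, where Klf2 and Klf4 are prominent, summed to 5.43 to 7.93 TPM over all libraries for the 6 of 8 that were measured. The 4 epithelial markers measured summed to 0.576 to 3.69 TPM. The smooth muscle and pericyte sum was 165 to 174 TPM in triple libraries and 921 to 968 TPM in untreated cells. Whether these mixtures have a part in the levels of the Klf genes was not tested.

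A set of 6 libraries stood apart: triple replicate 1, both replicate 2 and replicate 3 of the IL-33 with IL-17A group, and each of the 3 replicates of IL-33 with IL-13. Mitochondrially encoded genes took 3.50% to 3.87% of TPM in these and 4.77% to 6.13% in the other 9, and the labels name no batch. IL-33 with IL-13 has no library outside the set, so its own differences and those of the set cannot be fully told apart. A term for the set in the model rests on the triple and IL-33 with IL-17A groups alone, which have libraries on both sides. In each of these groups, replicate 1 is set against replicates 2 and 3. For IL-33 with IL-13 the term applies the shift seen in those groups. By this term 16.3% of tested genes differed between libraries inside and outside the set. Among the Klf genes 3 did: Klf7 was lower by 0.25 ± 0.06 (log2, SE, limma adjusted p = 0.0241), Klf3 by 0.20 ± 0.05 (adjusted p = 0.0294) and Klf9 by 0.20 ± 0.05 (adjusted p = 0.0166) inside the set. Calls of the members that changed with this term are given with it below.

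**Figure D1:**
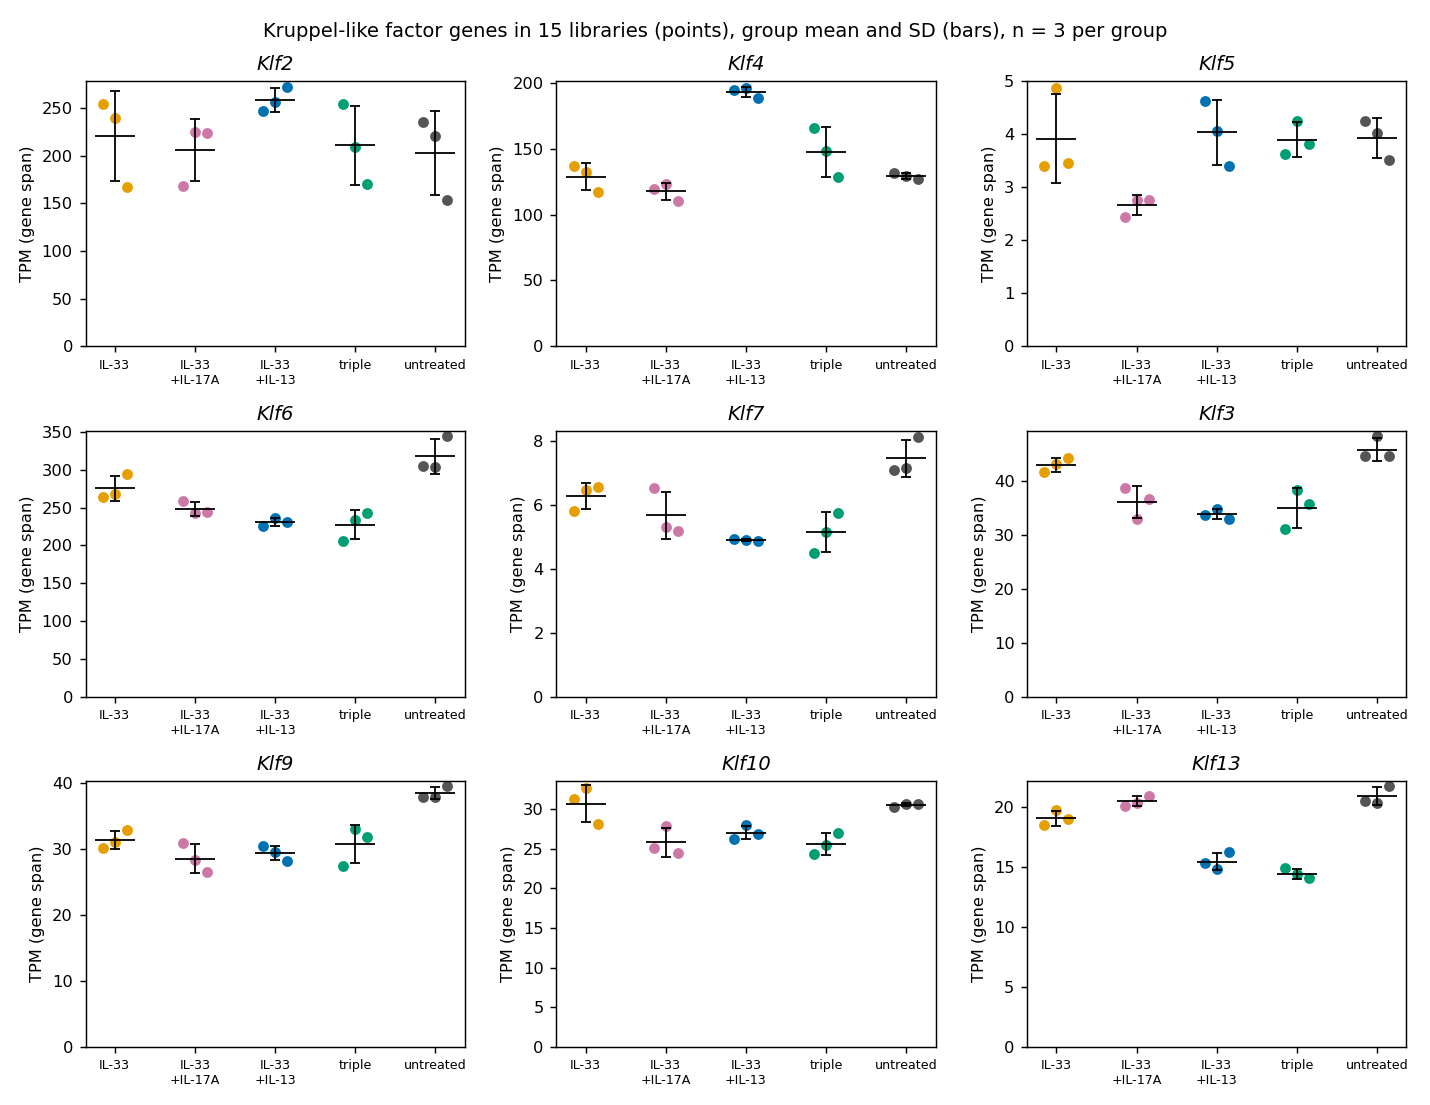
Span-scaled TPM of the 9 genes in every library (points), with group mean and SD (bars, n = 3 per group); each axis starts at 0. Klf4 stands highest with IL-33 and IL-13 (188 to 196 TPM), Klf13 lowest in both groups with IL-13 (14.1 to 16.2 TPM), and Klf6, Klf7, Klf3 and Klf9 are highest in untreated cells.

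Each cytokine group was first set against untreated cells with limma on log2(TPM + 1), adjusted over 13887 tested genes and called at an adjusted p under 0.05. IL-33 alone moved 1 of the 9 genes, Klf9, which was lower; 14.2% of all tested genes were called, 8.28% as lower and 5.92% as higher. IL-33 with IL-17A lowered 6 and raised 0 of the 9, where 37.7% of all genes were called, 27% as lower and 10.7% as higher. IL-33 with IL-13 lowered 6 and raised 1, Klf4, where 49.6% of all genes were called, 35.1% as lower and 14.5% as higher. The triple combination lowered 6 and raised 0, where 42.7% were called, 30.1% as lower and 12.6% as higher. The members' median log2 changes in these 4 comparisons were -0.09, -0.34, -0.38 and -0.32, beside -0.05, -0.09, -0.12 and -0.10 over all tested genes. These comparisons share the untreated libraries.

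The general tilt toward lower values depends on the scaling. With median-ratio scaling in place of TPM, the median gene lay at 0.01 for IL-33 with IL-13, a shift of over 0.1, and the calls split into 3383 higher and 3027 lower in place of 2017 higher and 4870 lower. With IL-33 and IL-17A the split became 2465 higher and 2182 lower in place of 1486 and 3743, and with the triple combination 2839 higher and 2572 lower in place of 1755 and 4178. Member changes relative to the median gene are therefore given where they matter. Under this scaling the triple combination raised 1 member, Klf4, and lowered 5.

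**Figure D2:**
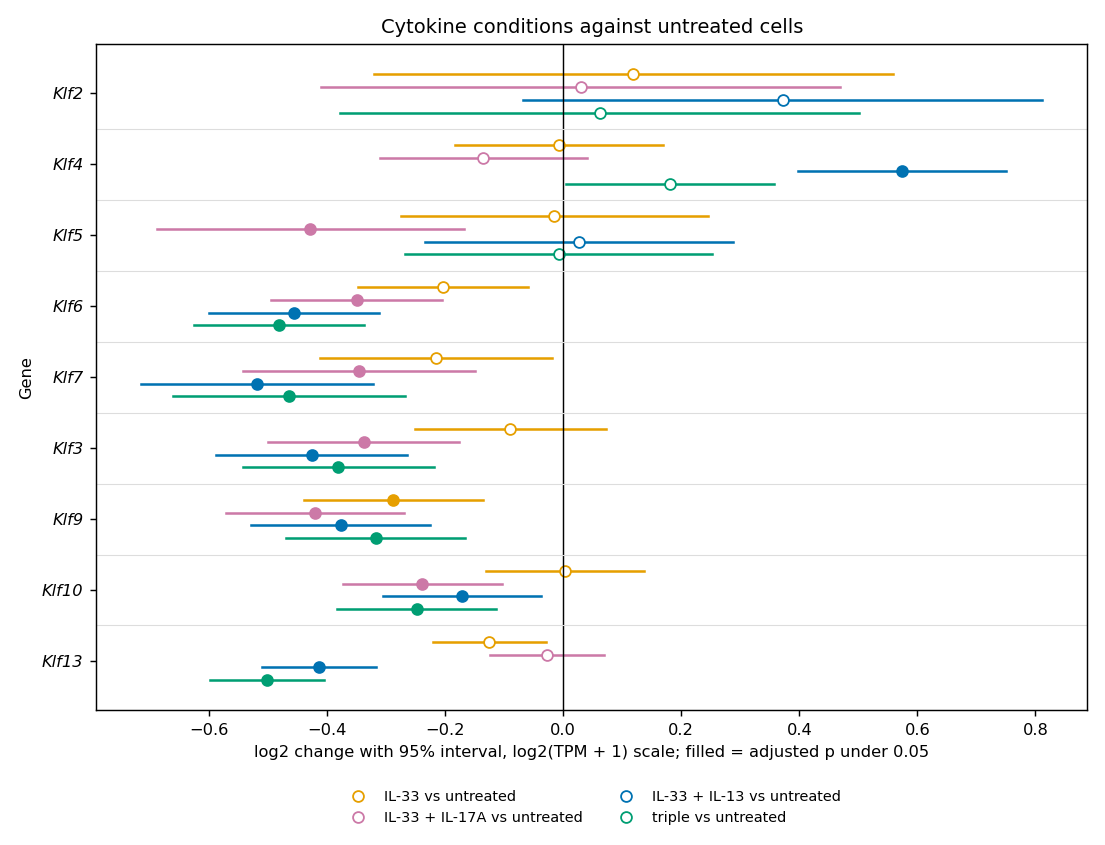
Log2 change of each gene (log2(TPM + 1) scale) with its 95% interval for each cytokine group against untreated cells, n = 3 libraries per group; filled points have a limma adjusted p under 0.05. Klf4 with IL-33 and IL-13 is the filled point right of 0, and all other filled points lie left of 0.

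Among the activators, Klf4 (ENSMUSG00000003032, chromosome 4, 55527143 to 55532466, mm10), known for restraining proliferation and for reprogramming cells to pluripotency, was the member that rose. It had 194, 196 and 188 TPM with IL-33 and IL-13, and 166, 148 and 128 TPM with the triple combination. It had 137, 133 and 117 TPM with IL-33, 119, 123 and 110.4 TPM with IL-33 and IL-17A, and 132, 129 and 127 TPM in untreated cells. All libraries with IL-33 and IL-13 lay above the other 12, while the triple libraries spread from the untreated level upward.

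Klf4 averaged 193 ± 4.02 TPM with IL-33 and IL-13 and 129 ± 2.19 TPM in untreated cells (SD, n = 3 each), 1.49 times as high. The log2 change was 0.57 ± 0.08 (SE, limma adjusted p = 0.000116), or 0.69 relative to the median gene. It was as large against IL-33 alone, at 0.58 ± 0.08 (adjusted p = 0.000281), and larger in value against IL-33 with IL-17A, at 0.71 ± 0.08 (adjusted p = 7.02e-05). These 3 calls of Klf4 held under all 12 alternatives run for each. Over those alternatives the change against untreated cells ranged between 0.46 with the term for the low-mitochondrial set and 0.73 with median-ratio scaling.

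The triple combination had less Klf4 than IL-33 with IL-13, at 147 ± 18.7 TPM against 193 ± 4.02 TPM (SD, n = 3 each). This log2 change of -0.39 ± 0.08 passed the test (limma adjusted p = 0.0117), but not with the set term (-0.32, adjusted p = 0.107), with the compared groups alone (-0.39, adjusted p = 0.0722), or without replicate 2 with IL-33 and IL-13 (-0.38, adjusted p = 0.0515). Against untreated cells the triple combination differed by 0.18 ± 0.08 (adjusted p = 0.0902, not called). That change passed under median-ratio scaling (0.31, adjusted p = 0.0247) and without replicate 3 of the triple combination (0.28, adjusted p = 0.00811). It also passed with limma-voom on recovered reads (0.31, adjusted p = 0.00531). Against IL-33 with IL-17A the triple combination was higher by 0.32 ± 0.08 (adjusted p = 0.0191). That call was lost among libraries outside the low-mitochondrial set (0.21, adjusted p = 0.324), with the compared groups alone (adjusted p = 0.134), without replicate 3 with IL-33 and IL-17A (adjusted p = 0.0806), and without replicate 1 (adjusted p = 0.0519) or 2 (adjusted p = 0.0626) of the triple combination.

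Klf2 (chromosome 8, 72319033 to 72321656), a shear-responsive factor of endothelium that also holds T cells quiescent, varied most between replicates. It had 254, 239.7 and 167 TPM with IL-33, 168, 224 and 224 TPM with IL-33 and IL-17A, and 247, 256 and 272 TPM with IL-33 and IL-13. Triple libraries had 254, 209 and 171 TPM, and untreated cells 235, 220.4 and 153 TPM. The libraries with IL-33 and IL-13 were above all untreated ones, but the untreated libraries themselves were far apart.
No comparison of Klf2 passed the test in any alternative run. The change with IL-33 and IL-13 against untreated cells was 0.37, with a 95% interval of -0.07 to 0.81 (limma adjusted p = 0.146), an interval that holds both 0 and the change seen for Klf4. The term for the low-mitochondrial set was 0.42 ± 0.18 for Klf2, inside minus outside, and was not called (adjusted p = 0.143).

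Klf5 (chromosome 14, 99298691 to 99315036), a factor of proliferating epithelium and remodelling mesenchyme, was near the lower end of what these libraries resolve. It had 2.44, 2.76 and 2.77 TPM with IL-33 and IL-17A, below the lowest of the other 12 libraries. The remaining groups overlapped, from 3.40 to 4.88 TPM with IL-33, 3.41 to 4.63 TPM with IL-33 and IL-13, 3.63 to 4.26 TPM with the triple combination, and 3.51 to 4.25 TPM in untreated cells. The combination of IL-33 with IL-17A was lower than untreated cells by 0.43 ± 0.12 (limma adjusted p = 0.0145), and lower than IL-33 alone by 0.41 ± 0.12 (adjusted p = 0.0483).
Both calls were lost under several alternatives. Against untreated cells the adjusted p was 0.0601 with the set term, 0.109 among libraries outside the set, 0.0599 with median-ratio scaling, 0.0517 on recovered reads and 0.0518 without untreated replicate 1. Against IL-33 alone, 11 of 13 alternatives ended the call. Among them were the set term (adjusted p = 0.173) and leaving out IL-33 replicate 2 (-0.28, adjusted p = 0.167) or 3 (adjusted p = 0.0574), and each IL-33 with IL-17A library in turn (adjusted p = 0.0729 to 0.107). Groups with IL-13 had more Klf5 than IL-33 with IL-17A, by 0.46 ± 0.12 with IL-33 and IL-13 (adjusted p = 0.0211) and by 0.42 ± 0.12 with the triple combination (adjusted p = 0.0313). The first was lost without replicate 1 (adjusted p = 0.0905) or 2 (adjusted p = 0.0653) with IL-33 and IL-13, or without replicate 1 with IL-33 and IL-17A (adjusted p = 0.0705). The second was lost outside the low-mitochondrial set (adjusted p = 0.155), without triple replicate 2 (adjusted p = 0.118) or 3 (adjusted p = 0.0751), and without each library with IL-33 and IL-17A in turn (adjusted p = 0.0614 to 0.0788).

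Klf6 (chromosome 13, 5861482 to 5870394) is an activator induced by injury, and Klf7 (chromosome 1, 64029447 to 64122282) its close relative, known for a role in neurons and adipocytes. Klf6 had 264, 268 and 294 TPM with IL-33, 259, 242 and 244 TPM with IL-33 and IL-17A, 226, 236 and 231 TPM with IL-33 and IL-13, and 206, 233 and 243 TPM with the triple combination. Untreated cells had 305, 304 and 344 TPM, above every cytokine-treated library. Klf7 had 5.79, 6.47 and 6.55 TPM with IL-33, 6.52, 5.30 and 5.17 TPM with IL-33 and IL-17A, 4.91, 4.90 and 4.86 TPM with IL-33 and IL-13, and 4.503, 5.16 and 5.74 TPM with the triple combination. Untreated cells had 7.07, 7.16 and 8.12 TPM of Klf7, again above all others.

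Against untreated cells Klf6 fell by 0.48 ± 0.07 with the triple combination (limma adjusted p = 8.44e-05), by 0.46 ± 0.07 with IL-33 and IL-13 (adjusted p = 0.000148) and by 0.35 ± 0.07 with IL-33 and IL-17A (adjusted p = 0.00141). Relative to the median gene these are -0.38, -0.34 and -0.26. The change with IL-33 alone, -0.20 ± 0.07, was not called (adjusted p = 0.0621), although it was with the set term (adjusted p = 0.0215) and without IL-33 replicate 3 (-0.25, adjusted p = 0.0368). Klf7 with IL-33 alone was at -0.22 ± 0.09 (adjusted p = 0.147, not called), and was called with the set term (adjusted p = 0.0264). Klf7 fell by 0.46 ± 0.09 with the triple combination (adjusted p = 0.00123), by 0.52 ± 0.09 with IL-33 and IL-13 (adjusted p = 0.000549) and by 0.35 ± 0.09 with IL-33 and IL-17A (adjusted p = 0.0102). For both genes these calls against untreated cells held under all alternatives run where IL-13 was present. Those with IL-33 and IL-17A were lost among libraries outside the low-mitochondrial set, at -0.29 (adjusted p = 0.0747) for Klf6 and -0.17 (adjusted p = 0.362) for Klf7, whose single library there had 6.52 TPM. With the set term Klf7 was at -0.18 in that comparison (adjusted p = 0.101).

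The repressor Klf3 (chromosome 5, 64803388 to 64832901), known from blood cells and fat, had 41.6, 43.1 and 44.1 TPM with IL-33 and 38.7, 32.8 and 36.7 TPM with IL-33 and IL-17A. It had 33.6, 34.8 and 33.0 TPM with IL-33 and IL-13, 31.0, 38.4 and 35.7 TPM with the triple combination, and 44.5, 48.3 and 44.5 TPM in untreated cells. IL-33 alone stayed just under the untreated range, and the 3 combinations lay further below it without overlap. Klf3 fell by 0.38 ± 0.07 with the triple combination (limma adjusted p = 0.00125), by 0.43 ± 0.07 with IL-33 and IL-13 (adjusted p = 0.000556) and by 0.34 ± 0.07 with IL-33 and IL-17A (adjusted p = 0.00378), against untreated cells. The first 2 held under all alternatives run, and the last was lost outside the low-mitochondrial set (-0.23, adjusted p = 0.0684).
Against IL-33 alone, Klf3 was lower with IL-33 and IL-13 (-0.34 ± 0.07, adjusted p = 0.00539) and with the triple combination (-0.29 ± 0.07, adjusted p = 0.0123). The first call was lost with the set term (-0.14, adjusted p = 0.309) and the second with the compared groups alone (adjusted p = 0.0591). An overlapping annotated gene on the same strand, C230096K16Rik, averaged 0.511 TPM.

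Klf9 (chromosome 19, 23141226 to 23168134), a repressor known as an early target of glucocorticoid and thyroid hormone receptors, was the 1 member that IL-33 alone changed. It had 30.2, 31.0 and 32.8 TPM with IL-33, 30.8, 28.3 and 26.4 TPM with IL-33 and IL-17A, 30.4, 29.5 and 28.2 TPM with IL-33 and IL-13, and 27.4, 32.9 and 31.9 TPM with the triple combination. Untreated cells had 37.9, 37.9 and 39.6 TPM, and the 4 cytokine groups overlapped with each other below that range. IL-33 alone lowered Klf9 by 0.29 ± 0.07 (limma adjusted p = 0.0144), to 31.3 ± 1.35 TPM against 38.5 ± 0.971 TPM in untreated cells (SD, n = 3 each). Without IL-33 replicate 1 the adjusted p was 0.0619, and without untreated replicate 3 it was 0.0571.
The changes with the combinations were -0.32 ± 0.07 with the triple combination (adjusted p = 0.00278), -0.38 ± 0.07 with IL-33 and IL-13 (adjusted p = 0.000822) and -0.42 ± 0.07 with IL-33 and IL-17A (adjusted p = 0.000522). With the set term the value for IL-33 with IL-13 was -0.18 (adjusted p = 0.0601), while those for the other two held under every alternative run. Klf9 did not pass the test in any comparison between cytokine groups. Its change on adding IL-13 to IL-33 was -0.09, with a 95% interval of -0.24 to 0.06.

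Klf10 (chromosome 15, 38291463 to 38300706), first described as an early response gene of TGF-beta, had the narrowest range. It had 31.3, 32.7 and 28.1 TPM with IL-33, 25.1, 27.8 and 24.5 TPM with IL-33 and IL-17A, 26.2, 28.0 and 26.9 TPM with IL-33 and IL-13, 24.3, 25.5 and 27.0 TPM with the triple combination, and 30.3, 30.7 and 30.7 TPM in untreated cells. The 3 combinations lay below the untreated range, while IL-33 alone spanned it. Klf10 was lower than in untreated cells by 0.25 ± 0.06 with the triple combination (limma adjusted p = 0.00601), by 0.17 ± 0.06 with IL-33 and IL-13 (adjusted p = 0.0354) and by 0.24 ± 0.06 with IL-33 and IL-17A (adjusted p = 0.00962). None of these calls held under median-ratio scaling, where the changes were -0.12 (adjusted p = 0.211), -0.02 (adjusted p = 0.803) and -0.12 (adjusted p = 0.218), or on recovered reads. The change with IL-33 and IL-17A was also lost with the set term (adjusted p = 0.055) and outside the set (adjusted p = 0.0702). The change with IL-33 and IL-13 was also lost without each untreated library in turn (adjusted p = 0.0643 to 0.0813), without replicate 1 (adjusted p = 0.108) or 3 (adjusted p = 0.0808) of its own group, and with the set term (adjusted p = 0.278).

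Klf13 (chromosome 7, 63886351 to 63938915), known for repression through Sin3a and, in T cells, for late expression of the chemokine Ccl5, was low in both groups with IL-13. It had 15.3, 14.8 and 16.2 TPM with IL-33 and IL-13 and 14.9, 14.4 and 14.1 TPM with the triple combination. It had 18.5, 19.8 and 19.0 TPM with IL-33, 20.1, 20.4 and 20.9 TPM with IL-33 and IL-17A, and 20.6, 20.4 and 21.8 TPM in untreated cells. The 6 libraries with IL-13 lay below the other 9 without overlap. These 6 are not the low-mitochondrial set: triple replicates 2 and 3 are outside it and had 14.4 and 14.1 TPM, and the IL-33 with IL-17A libraries inside it had 20.4 and 20.9 TPM.

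Against untreated cells Klf13 fell by 0.50 ± 0.04 with the triple combination (limma adjusted p = 1.52e-06) and by 0.41 ± 0.04 with IL-33 and IL-13 (adjusted p = 1.16e-05), or to -0.40 and -0.30 relative to the median gene. The means were 14.5 ± 0.416 TPM with the triple combination, 15.4 ± 0.718 TPM with IL-33 and IL-13 and 20.9 ± 0.758 TPM in untreated cells (SD, n = 3 each). IL-33 alone (-0.13 ± 0.04, adjusted p = 0.085) and IL-33 with IL-17A (-0.03 ± 0.04, adjusted p = 0.655) were not called. Adding IL-13 lowered Klf13 by 0.29 ± 0.04 on top of IL-33 (adjusted p = 0.000555) and by 0.47 ± 0.04 on top of IL-33 with IL-17A (adjusted p = 1.57e-05). All 6 calls of Klf13 between groups with and without IL-13 held under every alternative run, and the highest adjusted p among them was 0.0116. The gene E030018B13Rik, annotated on the other strand, shares 3683 bases with Klf13 and was not found among the 18078 genes measured. The use of strand in counting is not given in the sources used here.

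The next comparisons asked what each added cytokine did in the presence of the rest. IL-13 added to IL-33 raised 1 member, Klf4, and lowered 5, where 32.4% of all tested genes were called, 10% as higher and 22.4% as lower. The 5 were Klf3, Klf6, Klf7, Klf10 and Klf13. With the set term 2 members remained called, Klf4 and Klf13, where 1420 of the 13887 tested genes were called in place of 4506. Klf6 then stood at -0.10 (adjusted p = 0.486) and Klf7 at -0.05 (adjusted p = 0.781), in place of -0.25 ± 0.07 (limma adjusted p = 0.0133) and -0.30 ± 0.09 (adjusted p = 0.0236). The call of Klf6 was also lost without IL-33 replicate 3 (adjusted p = 0.0589). That of Klf7 was lost without IL-33 replicate 2 (adjusted p = 0.0703) or 3 (adjusted p = 0.0791), and without each library with IL-33 and IL-13 in turn (adjusted p = 0.0579 to 0.0601). Klf10, at -0.18 ± 0.06 (adjusted p = 0.0465), lost its call in 10 of 12 alternatives, including with the set term (adjusted p = 0.369), without IL-33 replicate 1 (adjusted p = 0.112) or 2 (adjusted p = 0.166) and without each library with IL-33 and IL-13 in turn (adjusted p = 0.0641 to 0.134).

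IL-13 added to IL-33 with IL-17A raised 2 members, Klf4 and Klf5, and lowered Klf13, where 15.8% of all genes were called, 6.7% as higher and 9.14% as lower. With the set term Klf7 was called there too, as lower (-0.20, adjusted p = 0.0496). The same 3 members differed in the same directions between the IL-33 with IL-13 group and that of IL-33 and IL-17A, where 16.8% were called, 7.54% as higher and 9.3% as lower; these comparisons share the IL-33 with IL-17A libraries. IL-17A added to IL-33 lowered 2 members, Klf5 and Klf10, where 9.76% were called, 6.22% as lower and 3.54% as higher. Neither held with median-ratio scaling, with the set term or with the compared groups alone. Klf10 was at -0.24 ± 0.06 there (limma adjusted p = 0.0266; with the set term adjusted p = 0.136; without IL-33 replicate 1 adjusted p = 0.0801, without IL-33 replicate 2 adjusted p = 0.113, without replicate 3 with IL-33 and IL-17A adjusted p = 0.119). IL-17A added to IL-33 with IL-13 lowered 1 member, Klf4, where 7.45% were called, 4.05% as lower and 3.4% as higher. The triple combination against IL-33 alone lowered 4 members, Klf3, Klf6, Klf10 and Klf13, and raised 0, where 24.7% were called, 16.5% as lower and 8.2% as higher. Of these, Klf13 alone kept its call with the compared groups alone, and Klf3 and Klf13 did so outside the low-mitochondrial set. The call of Klf10 was also lost with median-ratio scaling (-0.18, adjusted p = 0.0928) and on recovered reads (-0.18, adjusted p = 0.109).

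The members that did not pass the test had these log2 changes. Against untreated cells they were, with IL-33 alone, 0.12 for Klf2, -0.09 for Klf3, -0.01 for Klf4 and Klf5, and 0.0035 for Klf10, beside the values given above for Klf6, Klf7 and Klf13. With IL-33 and IL-17A, Klf2 was at 0.03 and Klf4 at -0.14, and Klf5 was at 0.03 with IL-33 and IL-13. With the triple combination Klf2 was at 0.06 and Klf5 at -0.01.
IL-13 added to IL-33 left Klf2 at 0.25 and Klf5 at 0.04 without a call. IL-17A added to IL-33 did so for Klf2 (-0.09), Klf3 (-0.25), Klf4 (-0.13), Klf6 (-0.15), Klf7 (-0.13), Klf9 (-0.13) and Klf13 (0.10). Klf3 in that comparison was called without replicate 1 of IL-33 with IL-17A (-0.30, adjusted p = 0.0217) and on recovered reads (-0.20, adjusted p = 0.0399), and Klf13 on recovered reads (0.16, adjusted p = 0.0464). The triple combination against IL-33 had Klf2 at -0.06, Klf4 at 0.19, Klf5 at 0.01, Klf7 at -0.25 and Klf9 at -0.03. Without triple replicate 3, Klf4 (0.28, adjusted p = 0.0131) and Klf7 (-0.32, adjusted p = 0.0324) were called there, and Klf4 was called on recovered reads (0.27, adjusted p = 0.0222).
IL-13 added to IL-33 with IL-17A had Klf2 at 0.03, Klf3 at -0.04, Klf6 at -0.13, Klf7 at -0.12, Klf9 at 0.10 and Klf10 at -0.01. For IL-33 with IL-13 against the IL-33 with IL-17A group, Klf2 was at 0.34, Klf3 at -0.09, Klf6 at -0.11, Klf7 at -0.17, Klf9 at 0.04 and Klf10 at 0.07. IL-17A added to IL-33 with IL-13 gave -0.31 for Klf2, and between -0.09 (Klf13) and 0.06 (Klf9) for the other 7. The interaction was -0.22 for Klf2, 0.12 for Klf6, 0.18 for Klf7, 0.19 for Klf9 and 0.17 for Klf10.

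**Figure D3:**
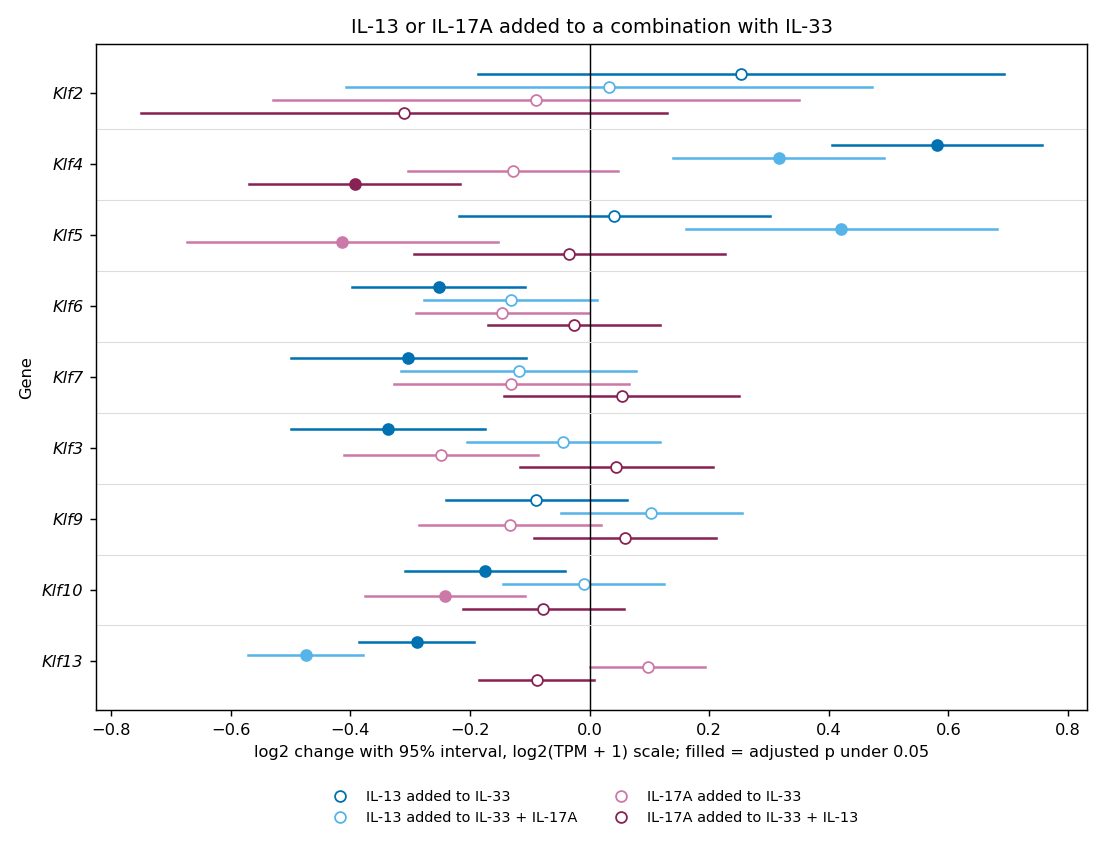
Log2 change (log2(TPM + 1) scale) with its 95% interval for IL-13 or IL-17A added to IL-33 or to the other combination, n = 3 libraries per group; filled points have a limma adjusted p under 0.05. Both IL-13 additions are filled for Klf4 (0.58 and 0.32) and for Klf13 (-0.29 and -0.47), on opposite sides of 0.

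Whether the 2 cytokines acted together otherwise than as a sum on the log2 scale was tested by their interaction in the presence of IL-33. For the 9 members limma called 0, where 0.338% of tested genes were called, 0.158% as higher and 0.18% as lower, while 4 members had an unadjusted p under 0.05. The values were -0.19 ± 0.06 for Klf13 (limma adjusted p = 0.109), 0.29 ± 0.11 for Klf3 (adjusted p = 0.118), -0.26 ± 0.11 for Klf4 (adjusted p = 0.164) and 0.38 ± 0.17 for Klf5 (adjusted p = 0.174). The count depends on single libraries: 3 members were called without replicate 1 of the triple combination (Klf3 at 0.38, Klf4 at -0.35 and Klf9 at 0.27), and 1 without replicate 1 of IL-33 with IL-17A (Klf3 at 0.34). The share of all tested genes called was then 16.5% and 21.9%, in place of 0.338%, so these counts of members moved along with those of all genes. Each of these libraries differs in mitochondrial share from the other pair of its group, at 3.87% against 4.99% and 5.003%, and at 5.23% against 3.73% and 3.67%. On recovered reads limma-voom called 1 member, Klf13 (-0.26, adjusted p = 0.0366), where it called 9.99% of all tested genes.

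**Figure D4:**
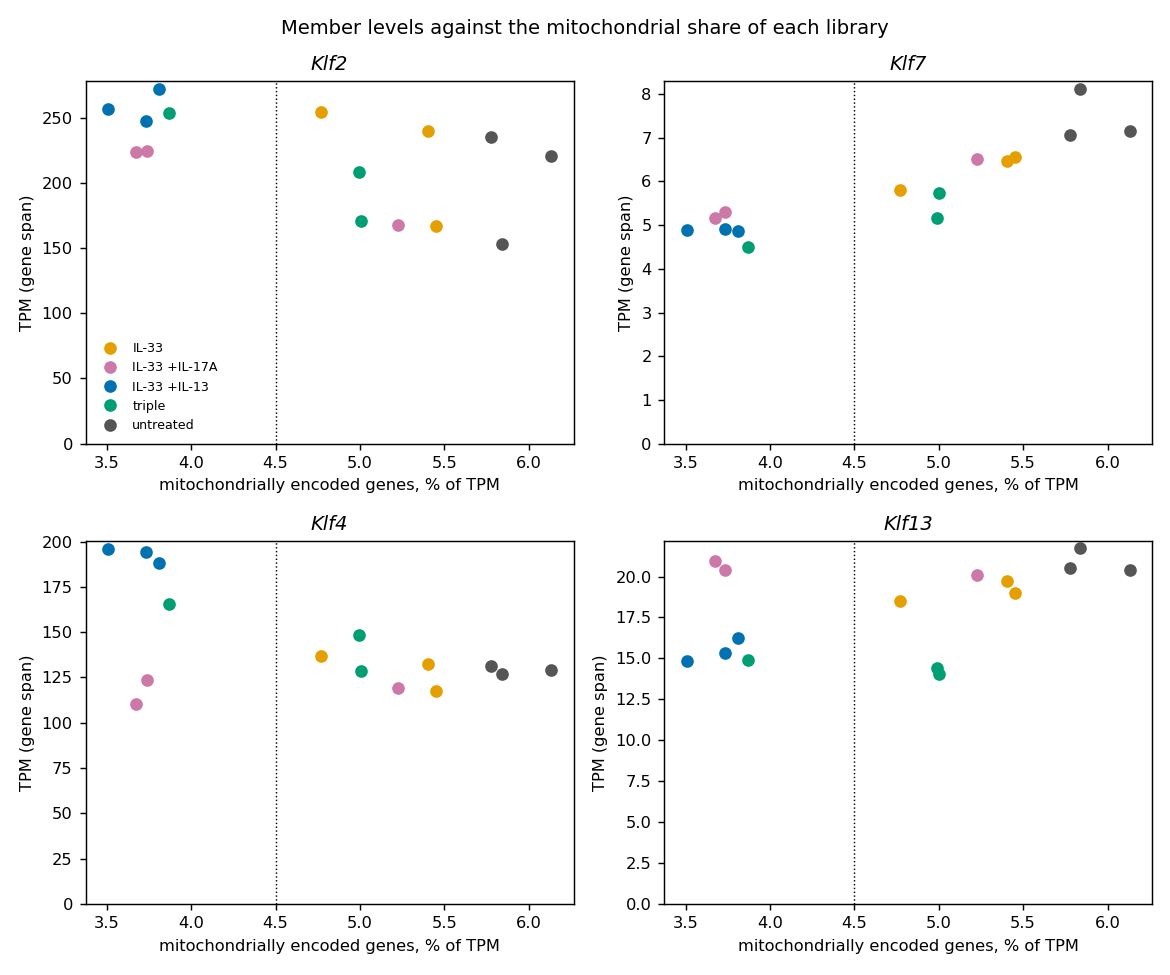
Span-scaled TPM of 4 genes against the share of TPM in mitochondrially encoded genes (%) in each of the 15 libraries, coloured by group; the dotted line at 4.5% parts the 6 libraries that stand apart. Klf7 is at 4.503 to 5.30 TPM left of the line and at 5.16 to 8.12 TPM right of it, while Klf13 is low in the IL-13 libraries on both sides. All untreated and IL-33 libraries lie right of the line and all with IL-33 and IL-13 left of it, so group and share are mixed in these ranges. Left and right of the line, Klf7 is at 5.17 and 5.30 against 6.52 TPM with IL-33 and IL-17A. With the triple combination it is at 4.503 against 5.16 and 5.74 TPM.

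Of the 8 other genes of the family listed, 3 passed the filter. Klf11 (Sin3a-binding, like Klf10) fell by 0.67 ± 0.13 with IL-33 and IL-13 (limma adjusted p = 0.001) and by 0.58 ± 0.13 with the triple combination (adjusted p = 0.00277) against untreated cells, at 7.28 ± 1.002, 7.80 ± 1.08 and 12.2 ± 1.76 TPM (SD, n = 3 each). Like Klf13, it was called lower on adding IL-13 to IL-33 (-0.58 ± 0.13, adjusted p = 0.00539) and to IL-33 with IL-17A (-0.43 ± 0.13, adjusted p = 0.0403). Against untreated cells, Klf11 was not called with IL-33 alone or with IL-33 and IL-17A. Klf15, another glucocorticoid target, was lower with the triple combination (-0.56 ± 0.20, adjusted p = 0.0387), at 12 to 21 reads per library against 24 to 37 in untreated cells. Klf16 was higher with IL-33 and IL-13 (0.45 ± 0.17, adjusted p = 0.0392). Klf1, Klf8 and Klf12 stayed under the filter. For Klf12 this follows from its span of 414048 bases, since it had 81, 83 and 74 reads with IL-33 and IL-13, 80, 71 and 93 with the triple combination, and 134, 117 and 153 in untreated cells, all below the untreated count. Klf14 and Klf17 were not found by symbol among the 18078 genes measured.

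Related genes from lists of regulators, partners and targets are given as counts against untreated cells, each for IL-33 with IL-13 and then for the triple combination. They stand beside 35.1% and 30.1% of all tested genes called lower, and 14.5% and 12.6% called higher, and nothing particular to a list is read from them. Of the 9 SP genes 5 were tested, and 4 and 2 were lower, led in the first by Sp3 (-0.33 ± 0.08, limma adjusted p = 0.00472) and Sp1 (-0.32 ± 0.06, adjusted p = 0.000816). The kinase pathway through MEK5 and ERK5 to MEF2 factors, which drives Klf2 and Klf4 in endothelium, had 5 and 5 of 7 tested genes lower and 0 higher. Its Mef2c fell by 0.81 ± 0.10 with IL-33 and IL-13 (adjusted p = 3.45e-05) and Mef2a by 0.54 ± 0.08 (adjusted p = 0.000243). Of 10 cofactors 4 and 4 were lower and 0 and 1 higher, among them the acetyltransferase genes Kat2b (-0.54 ± 0.09, adjusted p = 0.000517) and Ep300 (-0.49 ± 0.06, adjusted p = 4.75e-05) with IL-33 and IL-13. Of 5 ubiquitin ligase genes 3 and 2 were lower and 1 and 1 higher; Wwp1, whose product targets Klf2 and Klf5, fell by 0.77 ± 0.11 with IL-33 and IL-13 (adjusted p = 0.000179), and Smurf1 rose by 0.25 ± 0.04 (adjusted p = 0.000215).

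Of 6 tested glucocorticoid-responsive genes 3 and 3 were lower and 0 higher, again beside 35.1% and 30.1% of all tested genes called lower and 14.5% and 12.6% called higher. The receptor gene Nr3c1 fell by 0.64 ± 0.05 with IL-33 and IL-13 (limma adjusted p = 1.21e-06) and the phosphatase gene Dusp1 by 1.05 ± 0.06 with the triple combination (adjusted p = 4.99e-08), while Per1 was at 0.03 ± 0.08 with IL-33 and IL-13 (adjusted p = 0.791). The TGF-beta list, which bears on Klf10, had 8 and 5 of 11 genes lower and 2 and 1 higher. The ligand gene Tgfb1, at a mean of 166 TPM, was called higher in both comparisons, and Smad7 with IL-33 and IL-13. The ligand gene Tgfb3 fell by 2.32 ± 0.04 with the triple combination (adjusted p = 3.15e-13), at 36.1 ± 0.756 TPM against 184 ± 3.91 TPM in untreated cells, and Tgfb2 by 2.18 ± 0.09 with IL-33 and IL-13 (adjusted p = 1.92e-09). Of 9 tested genes reported as targets of these factors 3 and 3 were lower and 4 and 3 higher. Acta2, the smooth muscle actin gene that Klf4 is known to repress in vascular smooth muscle, fell by 2.21 ± 0.04 with the triple combination (adjusted p = 1.03e-12), at 421 ± 13.7 TPM against 1955 ± 39.1 TPM in untreated cells. Klf4 was not called there (0.18, adjusted p = 0.0902). Acta2 was also called lower with IL-33 alone and with IL-33 and IL-17A, where Klf4 was not called. On adding IL-13 to IL-33, Acta2 was called lower and Klf4 higher. Both were called higher with IL-33 and IL-13 than with IL-33 and IL-17A. Whether Klf4 has a part in the level of Acta2 was not tested. The cell cycle inhibitor gene Cdkn1b fell by 0.79 ± 0.07 with IL-33 and IL-13 (adjusted p = 1.84e-06). The list medians with IL-33 and IL-13 ran from -0.35 (other Klf genes) to -0.04 (targets), beside -0.12 over all tested genes.

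Among 9559 genes with a mean of at least 5 TPM, those whose log2(TPM + 1) followed the 3 members of widest range most closely over the 15 libraries were found by Pearson's r, given as a description since the libraries share groups and scaling. For Klf4 they were Ranbp1 (0.94), Metrnl (0.93) and Loxl3 (0.93), of which Loxl3 averaged 167 ± 7.13 TPM with IL-33 and IL-13, 115 ± 5.67 TPM with the triple combination and 88.6 ± 2.21 TPM in untreated cells (SD, n = 3 each). For Klf13 they were Tgfbi, Dkk3 and Lmo2, each at 0.96 or 0.97; Tgfbi averaged 21.3 ± 0.0781 TPM with IL-33 and IL-13, 21.0 ± 0.773 TPM with the triple combination and 35.9 ± 1.80 TPM in untreated cells. For Klf7 they were Tlk1 (0.99), Ids (0.98) and Rbm5 (0.98).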

How the data were processed

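The deposited values are TPM for 18078 Ensembl genes in each of 15 libraries. The submitters' processing notes name HISAT2, without a version, and the build mm10; the counting tool, its strand use and its handling of multiply mapped reads were not given in the sources used here. Tested on the values, the authors' TPM divide by the gene span: TPM times span fell on whole multiples of 1 step within 0.03 reads for 89.3% to 90.5% of 5220 to 5465 low values per library. These steps gave the reads and exon-scaled levels; intervals are given for changes, and replicate spread stands for all error. TPM sum to a fixed total, so a rise in abundant genes lowers the rest.

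Groups came from the labels, which give no replicate numbers, so replicates were numbered in accession order. No 2 libraries were identical (r of 0.981 to 0.988 within groups). limma 3.58.1 (R 4.3.3) with trend and robust options was fitted to log2(TPM + 1) over all 15 libraries, for the 13887 genes that reached 1 TPM in 3 or more libraries, leaving out 4191. Log2 changes on this scale understate low genes. P-values were adjusted by Benjamini-Hochberg over tested genes in each of 11 comparisons: the 10 pairs of groups and the interaction. The script was tested on simulated data. Files were joined with Python 3.11.15, pandas 2.3.3 and numpy 2.4.6. Alternatives were a pseudocount of 0.1, no filter, the compared groups alone, median-ratio scaling, a term for the low-mitochondrial set, libraries outside it, each library left out, and, chosen after seeing the data, limma-voom on recovered reads.

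All 9 members were named in every comparison; from each other list, up to 4 genes with the largest change among those called in any comparison; and 3 most alike genes for each of the 3 members of widest range. Further genes were named to account for a list or a marker sum. The members and lists were chosen with earlier results of these data known.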

Additional observations from a re-analysis of the deposited data

How the results depend on the processing

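Of 39 member calls, 17 held under all alternatives run for them, and none of 1296 alternative values of member changes reversed a call; 88 lost a call and 18 gained one. The number of the 9 genes called moved by over 1.5 times in these cases. For IL-33 against untreated cells (1) it was 3 with the set term and 0 to 2 with a library left out. For IL-33 with IL-17A against untreated cells (6) it was 3 with the set term and 1 outside the set. For IL-33 with IL-17A against IL-33 (2) it was 1 with no filter, 0 with the compared groups alone, median-ratio scaling, the set term or libraries outside the set, and 0 to 2 with a library left out. For IL-33 with IL-13 against IL-33 (6) it was 2 with the set term. For the triple combination it was 1 with the compared groups alone and 2 outside the set against IL-33 (4), 1 outside the set and 1 to 2 with a library left out against IL-33 with IL-17A (3), and 0 with the compared groups alone or the set term and 0 to 1 with a library left out against IL-33 with IL-13 (1). For the interaction (0) it was 1 on recovered reads and 0 to 3 with a library left out, and the share of all genes called moved with it. Calls among all 13887 tested genes also moved with the set term. They went from 1972 to 2685 with IL-33 and from 5229 to 3452 with IL-33 and IL-17A, against untreated cells. Against IL-33 they went from 1355 to 835 with IL-17A added and from 4506 to 1420 with IL-13 added. For the triple combination against IL-33 with IL-13 they went from 1034 to 566. IL-17A added to IL-33 had 1343 calls under median-ratio scaling and 550 of 13211 with the compared groups alone. Fits with fewer libraries gave fewer calls in some cases and more in others, and why the counts moved was not tested. With the compared groups alone, the triple combination against IL-33 had 2396 of 13265 genes called, in place of 3424 of 13887. Against IL-33 with IL-13 it had 590 of 13120, in place of 1034 of 13887. Comparisons with IL-33 and IL-13, and the interaction, could not be run outside the set, which holds all of that group. Outside the set IL-33 with IL-17A keeps 1 library, which is assumed to vary like the other groups. No paired analysis was possible because the labels carry no replicate numbers that could join libraries across groups. Depth limits Klf5 and Klf15, with 12 to 88 reads per library.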
